A study of Homo sapiens with 12 samples.

Results

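The 44 genes described here run the cell division cycle, and were taken from a deposited table of 58735 genes by their symbols. Of them, 22 act at the G1/S step, where cells commit to division and copy their DNA, and 22 act in G2 and mitosis. They were found by matching symbols to a list of names, with no measured value in the rule, though the list was chosen with earlier results of these data known. All 44 were found in the table, and 43 reached 1 FPKM in at least 3 of 12 libraries and were tested. FPKM, fragments counted per unit of transcript length and of sequencing depth, is a level corrected for transcript length and library size.

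Every library is labelled as HepaRG cells, a hepatic line of human origin, and as wild type, with 3 libraries in each of 4 groups. PA+OA cells had palmitate, the saturated acid, labelled with deuterium at 400 µM, with 200 µM oleate, a monounsaturated one, for 4 h. PA+BMS cells were given BMS-309403 at 50 µM for 24 h, a compound that blocks the lipid carrier FABP4, with 400 µM labelled palmitate for 4 h. PA cells had 400 µM labelled palmitate for 4 h, and control cells had none of these agents. Nothing in the labels calls the replicates separate cultures, so p-values measure only the spread between these libraries, which may be technical.

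In dividing cells the G1/S genes are switched on first, largely by E2F transcription factors that cyclin D and cyclin E kinases release from the retinoblastoma protein. The G2 and mitosis genes follow, largely through the DREAM and B-MYB-MuvB complexes and FOXM1, and their target promoters often carry a CHR element next to CCAAT boxes. HepaRG cells divide while sparse and leave the cycle as they differentiate, and non-dividing hepatocytes hold most of these messages at low levels.

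The promoters differed between the phases in the letters they carried. Of 44 members, 35 matched a RefSeq promoter window from 250 bases before to 50 bases after the annotated start (GRCh38.p14), of 27305 genes with such a window. CCND1, CCNE2, CDK2, MCM4, MCM5, AURKA, TPX2, BIRC5 and UBE2C had none. An E2F element, searched as TTTCCCGC or TTTGGCGC on both strands, was found in 11 of 17 G1/S windows (64.7%), in 1 of 18 G2/M windows (5.56%), that of NUSAP1, and in 2.75% of all windows. The CHR element, searched as TTTGAA on both strands, was found in 1 of 17 G1/S windows (5.88%), that of RRM1, in 12 of 18 G2/M windows (66.7%) and in 18.2% of all. CCAAT on either strand was in 12 of 17 (70.6%), 14 of 18 (77.8%) and 39.7%. Windows with more than 1 match were counted once, and a match is a description of the window, not a site. The windows of 4 members with large changes below, a pair from each phase, are printed 5′ to 3′ on the gene's strand, with E2F letters in capitals in E2F1 and CDC6 and CHR letters in capitals in TOP2A and KIF11. The E2F1 window is chr20:33686336-33686635 (minus strand), with its match beginning 20 bases before the start, and the CDC6 window is chr17:40287629-40287928 (plus strand), with its match at base 7 after the start. The TOP2A window is chr17:40417847-40418146 (minus strand), with matches beginning 194 and 151 bases before the start, and the KIF11 window is chr10:92592880-92593179 (plus strand), with its match 28 bases before.
E2F1: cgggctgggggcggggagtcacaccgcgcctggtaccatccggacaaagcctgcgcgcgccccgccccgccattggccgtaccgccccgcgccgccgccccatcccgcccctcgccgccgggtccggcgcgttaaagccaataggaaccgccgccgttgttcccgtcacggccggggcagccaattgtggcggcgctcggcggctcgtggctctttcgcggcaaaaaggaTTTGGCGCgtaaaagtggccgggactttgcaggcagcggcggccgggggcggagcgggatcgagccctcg
CDC6: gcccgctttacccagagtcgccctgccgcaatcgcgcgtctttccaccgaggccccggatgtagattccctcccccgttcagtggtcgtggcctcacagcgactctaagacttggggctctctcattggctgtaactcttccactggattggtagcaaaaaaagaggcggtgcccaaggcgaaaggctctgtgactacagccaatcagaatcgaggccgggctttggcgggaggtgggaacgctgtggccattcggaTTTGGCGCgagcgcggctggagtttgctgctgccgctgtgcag
TOP2A: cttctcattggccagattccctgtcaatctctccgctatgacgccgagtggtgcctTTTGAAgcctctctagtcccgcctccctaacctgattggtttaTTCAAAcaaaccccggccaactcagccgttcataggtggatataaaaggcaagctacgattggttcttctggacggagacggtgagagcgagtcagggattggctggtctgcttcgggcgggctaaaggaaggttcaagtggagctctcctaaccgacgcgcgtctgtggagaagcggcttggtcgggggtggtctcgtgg
KIF11: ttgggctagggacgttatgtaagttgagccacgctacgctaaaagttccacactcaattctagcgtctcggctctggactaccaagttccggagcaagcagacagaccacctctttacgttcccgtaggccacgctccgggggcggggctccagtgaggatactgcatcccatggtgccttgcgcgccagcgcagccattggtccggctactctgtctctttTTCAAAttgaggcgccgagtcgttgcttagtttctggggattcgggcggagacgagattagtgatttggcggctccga

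Most members were well expressed in every group. In all 12 libraries 31 members stayed at 10 FPKM or more, and 4, namely MCM3, MCM7, PCNA and RRM1, stayed above 100 FPKM. CCNE1, CCNE2 and NUSAP1 stayed under 5 FPKM in all libraries. CENPE, the kinesin that carries chromosomes to the spindle equator, was the lowest member and had 0.0908, 0.397 and 0.497 FPKM in PA+OA cells, 0.591, 0.587 and 1.595 in PA+BMS cells, 0.659, 0.409 and 0.608 in PA cells and 0.6799, 1.21 and 0.953 in control cells. It reached 1 FPKM in 1 PA+BMS and 1 control library and was not tested. Its reads, 13 to 299 per library on 9444 bases, overlapped those of NUSAP1, 67 to 215, but were far fewer in PA+OA replicate 1, at 13 against 84. The highest library exceeded the lowest by a median of 2.03-fold over G1/S members and 2.67-fold over G2/M members. Every tested member had at least 67 recovered reads in each library.

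Recovered reads summed to between 16059128 and 19971190 per library. The library size inside the FPKM was not this total: it was 0.827 to 1.03 times the total in PA+OA, 1.09 to 1.14 in PA+BMS, 0.888 to 0.976 in PA and 1.03 to 1.10 in control libraries. How it was defined is not given in the sources used here, and every FPKM and every change between groups carries this factor. PA+OA replicate 1 and PA+BMS replicate 3 lay at opposite ends of the first principal component (-54.6 and 51.5, 54.4% of variance), apart from their groups, and the results are also given without them. PA+OA replicate 1 was the lowest library for 13 members and the highest for 13, and PA+BMS replicate 3 was the lowest for 9 and the highest for 16. Along this axis the values moved with transcript GC content, whose median was 51.1% in G1/S members, 44.6% in G2/M members and 49.2% in all tested genes. Results are therefore also given with the dependence of each library on GC content and length taken out (trend removed), a setting in which 11848 genes were tested. An annotated neighbour overlaps 25 of the members, and for 15 that neighbour reached 1 FPKM, while the strand setting of the counting is not given in the sources used here, so reads of these pairs may be shared; they are CCND1, CCNE2, CDC25A, MCM2, MCM7, GINS2, RFC4, POLA1, RRM1, TYMS, CCNA2, CCNB2, KIF20A, ANLN and TOP2A.

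**Figure D1:**
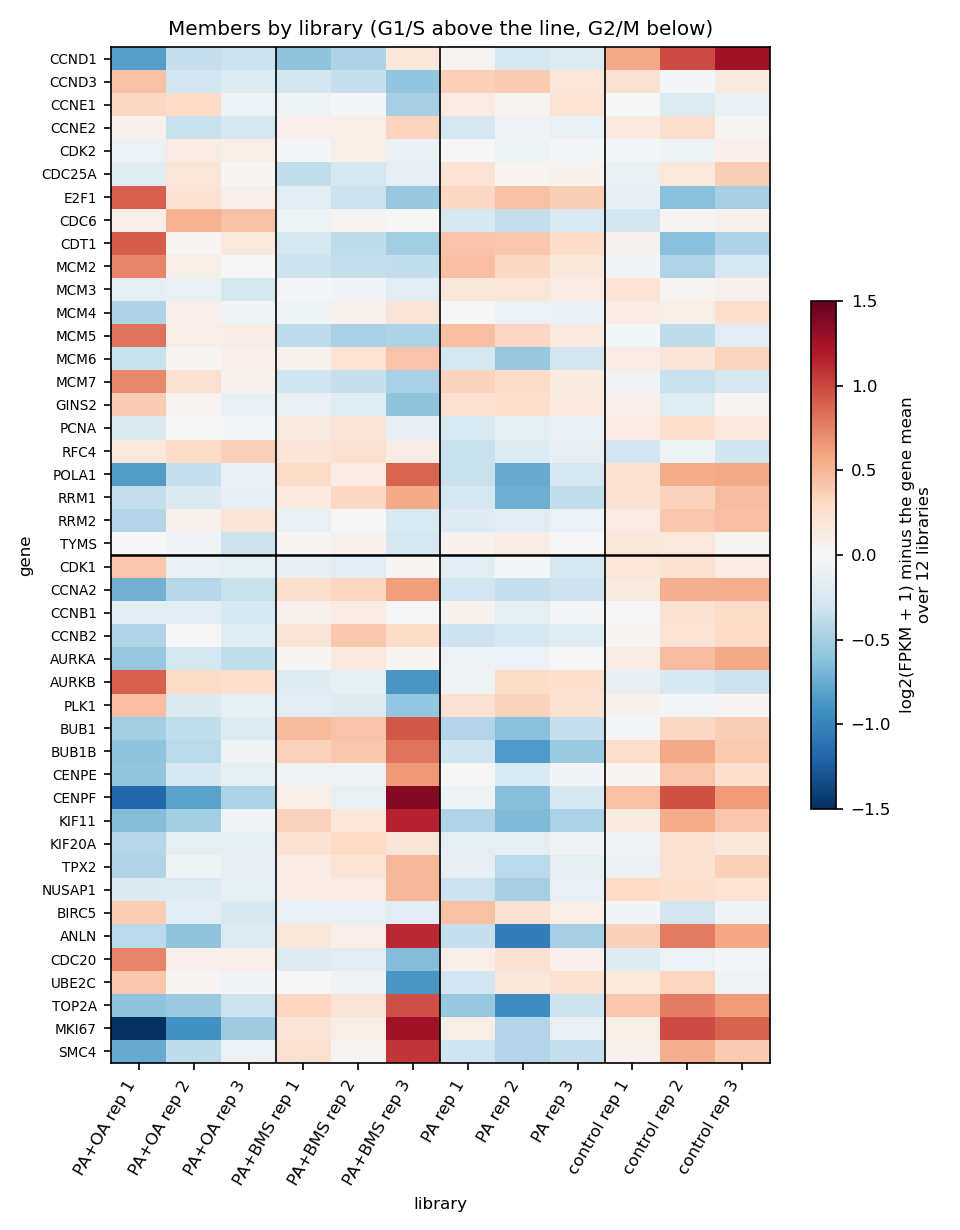
Heat map of log2(FPKM + 1) minus each gene's mean over 12 libraries, for 44 members in rows (G1/S above the line, G2/M below) and libraries in columns by group; red is above and blue below the gene's mean. PA+OA replicate 1 and PA+BMS replicate 3 show the strongest colours, in opposite directions for the low-GC mitotic genes such as CENPF and MKI67, and CCND1 is red in all 3 control libraries.

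The G1 regulators, which act first in the cycle, differed from one another. Gene positions are those of the deposited table, which match GRCh38. CCND1 (cyclin D1, the growth factor-dependent partner of CDK4 and CDK6, ENSG00000110092, chromosome 11, 69641087 to 69654474) had 20.2, 28.5 and 28.97 FPKM in PA+OA cells, 23.6, 26.2 and 41.05 in PA+BMS cells, 37.6, 30.4 and 31.6 in PA cells and 54.3, 72.9 and 88.9 in control cells. All 9 treated libraries lay below all 3 control libraries. CCND3, its paralogue cyclin D3, had 75.1, 45.2 and 47.6 FPKM in PA+OA cells, 45.4, 43.1 and 36.2 in PA+BMS cells, 70.9, 72.8 and 62.99 in PA cells and 65.1, 54.3 and 60.6 in control cells, so the PA+BMS libraries lay below the PA libraries while the PA+OA libraries overlapped them. E2F1, the activator of S phase genes (ENSG00000101412, chromosome 20, 33675683 to 33686404), had 84.9, 52.7 and 47.7 FPKM in PA+OA cells, 39.9, 35.9 and 29.9 in PA+BMS cells, 56.01, 61.3 and 58.4 in PA cells and 41.3, 28.7 and 31.5 in control cells. PA+OA and PA libraries lay above the PA+BMS and control libraries without overlap, and PA+OA replicate 1 was the highest. CDC25A, the phosphatase that activates CDK2, had 20.2, 26.05 and 23.4 FPKM in PA+OA cells, 17.5, 19.1 and 21.04 in PA+BMS cells, 26.7, 23.4 and 23.7 in PA cells and 21.3, 25.7 and 29.8 in control cells. Its PA+OA, PA and control libraries overlapped and its PA+BMS libraries lay below those of PA. CCNE2, a cyclin E, was low, with 2.21, 1.44 and 1.57 FPKM in PA+OA cells, 2.24, 2.25 and 2.85 in PA+BMS cells, 1.58, 1.96 and 1.86 in PA cells and 2.38, 2.65 and 2.13 in control cells. Its control and PA+BMS libraries overlapped and lay above those of PA. CCNE1, the other cyclin E, averaged 4.07 ± 0.768 FPKM in PA+OA, 2.94 ± 0.672 in PA+BMS, 3.87 ± 0.2697 in PA and 3.17 ± 0.281 in control cells, and CDK2, the kinase both bind, averaged 34.01 ± 2.76 FPKM in PA+OA, 32.8 ± 2.26 in PA+BMS, 32.4 ± 0.946 in PA and 32.9 ± 1.72 in control cells (SD, n = 3 each).

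Among the genes that license origins and build the replication fork, CDT1, MCM2, MCM5 and MCM7 had, like E2F1, PA above PA+BMS and control. How often groups lay apart over all tested genes is not reported here, so non-overlap of libraries is given throughout only as a description. CDC6, the loader of the MCM helicase at origins (ENSG00000094804, chromosome 17, 40287633 to 40304657), had 34.2, 46.7 and 44.2 FPKM in PA+OA cells, 30.9, 33.2 and 32.5 in PA+BMS cells, 27.1, 24.9 and 27.4 in PA cells and 26.4, 32.8 and 33.7 in control cells. The 3 PA+OA libraries were the highest of all and the PA libraries, with control replicate 1, the lowest. CDT1, its partner in loading, had 162, 88.4 and 96.9 FPKM in PA+OA cells, 72.3, 66.2 and 59.6 in PA+BMS cells, 117, 114 and 104 in PA cells and 89.6, 55.4 and 62.4 in control cells. PA libraries lay above PA+BMS and control libraries without overlap. MCM2, a subunit of the helicase, had 153, 97.4 and 91.6 FPKM in PA+OA cells, 73.7, 71.2 and 70.5 in PA+BMS cells, 126, 114 and 103 in PA cells and 88.6, 66.7 and 76.8 in control cells, again with PA above control and PA+BMS. MCM5, another subunit, had 103, 62.2 and 62.98 FPKM in PA+OA cells, 44.2, 41.3 and 41.9 in PA+BMS cells, 80.1, 72.4 and 64.4 in PA cells and 57.1, 44.3 and 51.7 in control cells, and every PA+BMS library lay below every other library. MCM7, a further subunit, had 294, 209 and 185 FPKM in PA+OA cells, 145, 140.1 and 127 in PA+BMS cells, 227, 218 and 197 in PA cells and 172, 142 and 149 in control cells, and here too PA libraries lay above PA+BMS and control. MCM6, also a subunit, ran the other way with 41.02, 52.9 and 54.8 FPKM in PA+OA cells, 54.3, 60.2 and 70.1 in PA+BMS cells, 43.1, 34.8 and 42.6 in PA cells and 56.3, 59.4 and 65.6 in control cells, the PA libraries lying below PA+BMS and control.

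The remaining fork and nucleotide genes were not uniform. RFC4, a clamp loader subunit (ENSG00000163918, chromosome 3, 186789880 to 186807058), had 21.7, 23.5 and 25.1 FPKM in PA+OA cells, 22.2, 22.7 and 20.9 in PA+BMS cells, 15.1, 16.7 and 17.7 in PA cells and 15.6, 18.3 and 15.5 in control cells. PA+OA and PA+BMS libraries lay above PA and control libraries without overlap. POLA1, the catalytic subunit of the primase polymerase, had 4.39, 6.57 and 7.95 FPKM in PA+OA cells, 10.7, 9.52 and 16.7 in PA+BMS cells, 6.68, 4.69 and 7.08 in PA cells and 10.3, 13.2 and 13.3 in control cells. PA libraries lay below PA+BMS and control. PCNA, the sliding clamp, had 147, 169 and 168 FPKM in PA+OA cells, 187, 195 and 157 in PA+BMS cells, 145, 155 and 157 in PA cells and 185, 201 and 188 in control cells, with PA+OA and PA below control. RRM1, the large subunit of ribonucleotide reductase, which makes deoxynucleotides, had 223, 245 and 263 FPKM in PA+OA cells, 317, 354 and 426 in PA+BMS cells, 237, 172 and 221 in PA cells and 334, 364 and 393 in control cells. Libraries of PA+OA and PA lay below PA+BMS and control without overlap. RRM2, its small subunit, had 18.6, 26.9 and 29.5 FPKM in PA+OA cells, 23.7, 25.8 and 21.8 in PA+BMS cells, 22.3, 22.9 and 24.2 in PA cells and 28.1, 34.3 and 35.5 in control cells, with PA+BMS and PA libraries below all control libraries. MCM3 averaged 110.0 ± 5.94 FPKM in PA+OA, 118 ± 6.17 in PA+BMS, 139 ± 3.04 in PA and 134 ± 8.16 in control cells, and MCM4 averaged 78.5 ± 14.7 FPKM in PA+OA, 90.2 ± 8.44 in PA+BMS, 82.5 ± 2.94 in PA and 95.3 ± 5.83 in control cells (SD, n = 3 each). GINS2, of the helicase's activating complex, averaged 26.97 ± 5.12 FPKM in PA+OA, 20.2 ± 3.71 in PA+BMS, 28.8 ± 1.198 in PA and 24.5 ± 2.46 in control cells, and TYMS, the thymidylate synthase, 20.7 ± 2.58 FPKM in PA+OA, 21.7 ± 2.63 in PA+BMS, 23.4 ± 0.921 in PA and 24.6 ± 1.27 in control cells (SD, n = 3 each).

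The cyclins and kinases of G2 and mitosis showed lower levels with palmitate in some cases and not in others. CDK1, the mitotic kinase itself, had 27.7, 18.9 and 18.4 FPKM in PA+OA cells, 18.6, 18.2 and 20.7 in PA+BMS cells, 18.1, 20.2 and 16.99 in PA cells and 23.3, 24.05 and 22.2 in control cells. PA libraries lay below control and PA+OA replicate 1 lay above every other library. CCNA2, cyclin A2, which drives S phase and entry into mitosis, had 15.4, 19.2 and 20.6 FPKM in PA+OA cells, 31.5, 33.03 and 40.96 in PA+BMS cells, 21.2, 20.3 and 20.995 in PA cells and 28.9, 38.6 and 38.8 in control cells. Both PA+OA and PA libraries lay below PA+BMS and control libraries without overlap. CCNB1, cyclin B1, the main partner of CDK1, had 70.1, 70.7 and 67.01 FPKM in PA+OA cells, 82.8, 85.8 and 78.5 in PA+BMS cells, 82.2, 71.2 and 77.6 in PA cells and 78.8, 92.8 and 96.9 in control cells. The PA+OA libraries lay below all others, while PA libraries overlapped both PA+BMS and control. AURKA, a centrosome kinase, had 31.99, 40.03 and 36.99 FPKM in PA+OA cells, 49.3, 53.4 and 49.1 in PA+BMS cells, 45.3, 45.3 and 48.3 in PA cells and 52.4, 66.7 and 71.8 in control cells. PA+OA libraries were the lowest and those of control were mostly the highest, with PA+BMS overlapping control. AURKB, the kinase of the chromosomal passenger complex, had 71.8, 46.8 and 45.5 FPKM in PA+OA cells, 33.2, 34.3 and 20.4 in PA+BMS cells, 36.6, 46.4 and 45.3 in PA cells and 34.9, 32.2 and 30.3 in control cells, where PA+BMS libraries lay below PA and PA libraries above control. PLK1, polo-like kinase 1, had 70.2, 43.8 and 46.6 FPKM in PA+OA cells, 45.4, 44.1 and 33.9 in PA+BMS cells, 60.1, 65.4 and 60.1 in PA cells and 53.1, 50.2 and 51.6 in control cells, with PA above control and PA+BMS.

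The checkpoint, division and chromosome genes varied widely between libraries. BUB1, a spindle checkpoint kinase, had 6.29, 7.05 and 8.04 FPKM in PA+OA cells, 13.4, 12.99 and 18.8 in PA+BMS cells, 6.64, 5.71 and 7.15 in PA cells and 9.27, 11.9 and 12.4 in control cells. PA+BMS libraries lay above all others and PA libraries below PA+BMS and control. BUB1B, which encodes the checkpoint protein BUBR1, had 6.63, 7.72 and 10.1 FPKM in PA+OA cells, 13.7, 14.3 and 19.3 in PA+BMS cells, 8.39, 5.403 and 6.87 in PA cells and 12.8, 16.2 and 14.2 in control cells, and PA+OA and PA libraries lay below PA+BMS and control. ANLN, anillin, the scaffold of the cleavage furrow, had 10.4, 8.91 and 12.2 FPKM in PA+OA cells, 16.1, 14.9 and 32.1 in PA+BMS cells, 10.8, 6.34 and 9.71 in PA cells and 18.3, 24.8 and 21.6 in control cells. PA+OA and PA libraries lay below PA+BMS and control, and PA+BMS replicate 3 was the highest of all. TOP2A, the topoisomerase that untangles sister chromatids (ENSG00000131747, chromosome 17, 40388516 to 40417950), had 9.85, 10.2 and 12.2 FPKM in PA+OA cells, 19.6, 17.9 and 31.2 in PA+BMS cells, 10.1, 7.63 and 12.3 in PA cells and 20.8, 27.1 and 24.7 in control cells. PA+OA and PA libraries lay below PA+BMS and control without overlap. MKI67, the chromosome surface protein Ki-67 used to score dividing cells, had 4.16, 7.42 and 9.96 FPKM in PA+OA cells, 17.1, 15.98 and 36.8 in PA+BMS cells, 15.9, 10.7 and 13.6 in PA cells and 15.9, 30.1 and 28.1 in control cells, and PA+OA libraries were the lowest. CDC20, an activator of the anaphase-promoting complex, had 165, 104 and 106 FPKM in PA+OA cells, 86.4, 88.5 and 62.8 in PA+BMS cells, 106, 115 and 104 in PA cells and 86.1, 92.6 and 96.9 in control cells, and UBE2C, that complex's ubiquitin-conjugating enzyme, had 70.99, 53.99 and 51.4 FPKM in PA+OA cells, 52.5, 51.1 and 28.5 in PA+BMS cells, 43.3, 59.7 and 62.1 in PA cells and 59.4, 66.2 and 50.96 in control cells. In these last genes PA+OA replicate 1 was the highest library and PA+BMS replicate 3 the lowest.

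**Figure D2:**
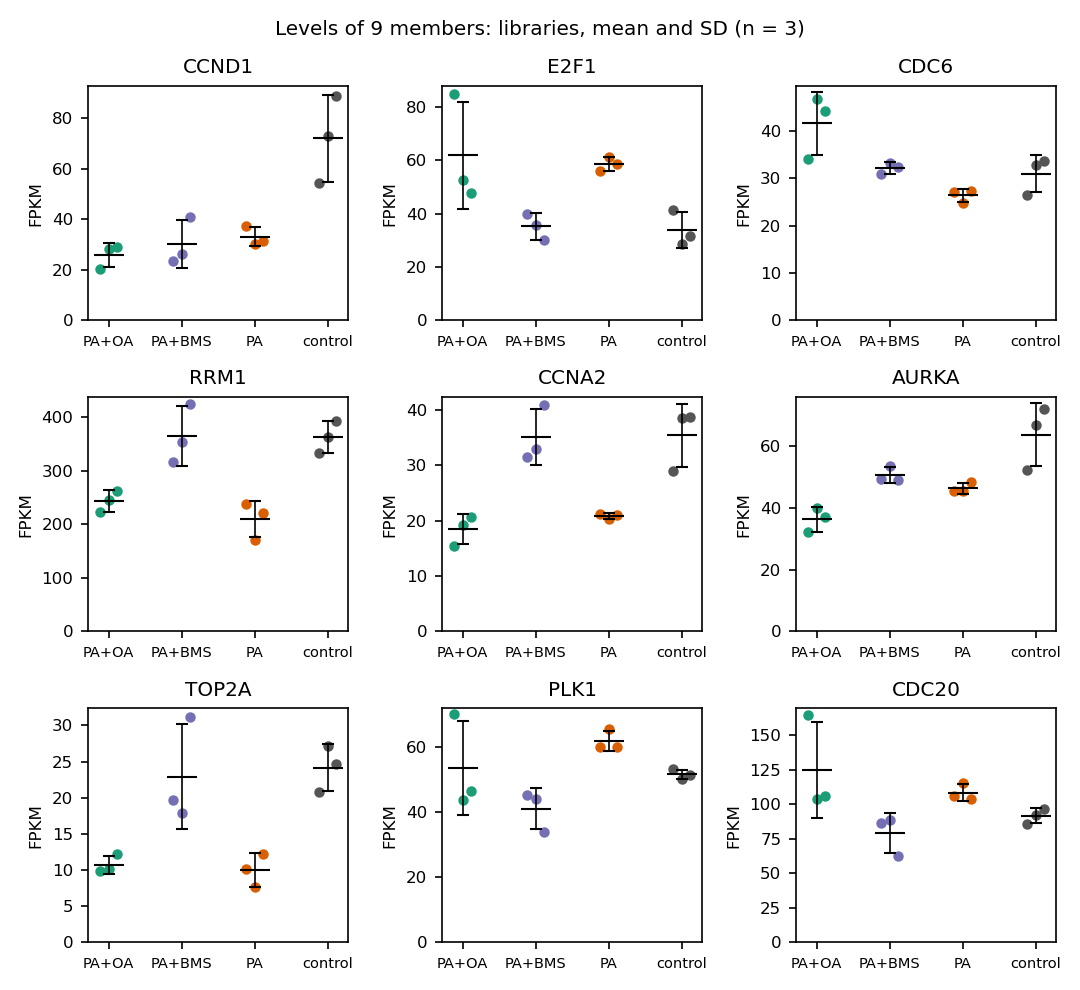
FPKM of 9 members in each library (points), with the mean and SD of the 3 libraries of a group (bars), on linear axes from 0. TOP2A and RRM1 sit lower in PA+OA and PA than in PA+BMS and control, CCND1 is highest in control, CDC6 is highest in PA+OA, and E2F1, PLK1 and CDC20 show PA+OA replicate 1 apart from its group.

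Palmitate alone was compared with control to see what 4 h of the fatty acid did to these genes. Part of the mitotic genes fell, and more G1/S members fell than rose. Of 43 tested members, 15 fell and 3 rose, where limma called 14.8% of all 11856 tested genes lower and 12.8% higher. The 3 rises were thus below the share of all tested genes. Of 21 G2/M members 10 fell and none rose in this fit, with a median log2 change of -0.44, while of 22 G1/S members 5 fell and 3 rose, with a median of -0.03, against 0.03 over all tested genes. In these bulk libraries, fewer cells in a phase and less message per cell cannot be told apart.

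E2F1 (log2 change 0.79 ± 0.20, adjusted p = 0.0184), CDT1 (log2 change 0.72 ± 0.22, adjusted p = 0.0349) and MCM2 (log2 change 0.56 ± 0.18, adjusted p = 0.0398) were the members that rose with palmitate; here and below ± after a log2 change is its SE, and changes are of log2(FPKM + 1), a scale that makes those of low genes look smaller. Among G1/S members, those that fell were RRM1 (log2 change -0.80 ± 0.16, adjusted p = 0.0069), CCND1 (log2 change -1.07 ± 0.23, adjusted p = 0.00859), MCM6 (log2 change -0.58 ± 0.15, adjusted p = 0.017), POLA1 (log2 change -0.90 ± 0.23, adjusted p = 0.0171) and RRM2 (log2 change -0.47 ± 0.16, adjusted p = 0.0438). CCND1 had the largest change of the G1/S members, at 33.2 ± 3.83 FPKM in PA cells and 72.1 ± 17.3 in control cells (SD, n = 3). Among helicase genes MCM2 was thus higher and MCM6 lower. MCM5 and MCM7, at 0.50 and 0.47, did not pass (adjusted p = 0.0583 and 0.0519, limma), nor did MCM3 and MCM4, at 0.05 and -0.20. MCM2 has 58.1% GC and MCM6 43.1%. With the trend removed neither passed, at 0.24 and -0.30 (adjusted p = 0.147 and 0.0513, limma).

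TOP2A (log2 change -1.21 ± 0.21, adjusted p = 0.00357), BUB1B (log2 change -0.97 ± 0.18, adjusted p = 0.00542), CCNA2 (log2 change -0.73 ± 0.15, adjusted p = 0.00785) and ANLN (log2 change -1.20 ± 0.26, adjusted p = 0.00986) had the smallest p-values of the G2/M members that fell. TOP2A averaged 10.002 ± 2.33 FPKM in PA cells and 24.2 ± 3.198 in control cells. The others that fell were BUB1 at -0.70, KIF11, the motor that pushes spindle poles apart, at -0.90, NUSAP1, a spindle microtubule protein, at -0.56, CCNB2, cyclin B2, at -0.43, AURKA at -0.44 and CENPF, a kinetochore protein, at -0.997, with adjusted p between 0.0113 and 0.0434 (limma). CDK1, CCNB1, PLK1, CDC20 and UBE2C did not pass, at -0.32, -0.21, 0.26, 0.24 and -0.10. MKI67 (log2 change -0.80 ± 0.35, adjusted p = 0.0925) and SMC4, a condensin subunit (log2 change -0.70 ± 0.24, adjusted p = 0.0504), had large changes but missed the threshold.

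The order of changes followed base composition. The 3 members that rose had 58.1% to 65.2% GC and the 15 that fell 38.3% to 55.9%, and over the 43 members the Spearman correlation of GC content with log2 change was 0.79, a description across genes that share these libraries. GC content and length together accounted for 45.6% of the variance of log2 changes over all tested genes in this comparison. With the trend removed, 10 members fell and 1, E2F1, rose (background 9.34% and 6.63%), and 7 G2/M members still fell, among them TOP2A at -0.79 (adjusted p = 0.00254, limma). CCND1, with 55.9% GC, lay far below the trend and its change became larger, at -1.36. Without the 2 libraries that stand apart, neither of which is in the contrast, 23 members fell and 10 rose (background 26.8% and 29.9%), and among the rises were the G2/M members AURKB, BIRC5, PLK1 and CDC20, at 0.38, 0.37, 0.26 and 0.24 (adjusted p = 0.00788, 0.0101, 0.0104 and 0.0221, limma). The falls dropped to 5 without PA replicate 2 or control replicate 2 and to 7 without control replicate 3, and the rises to 0 without any 1 of these 3, to 1 without PA replicate 1 or 3, and went to 6 without PA+OA replicate 1. TOP2A, BUB1B, RRM1, CCNA2 and CCND1 passed in every fit that left out 1 library.

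**Figure D3:**
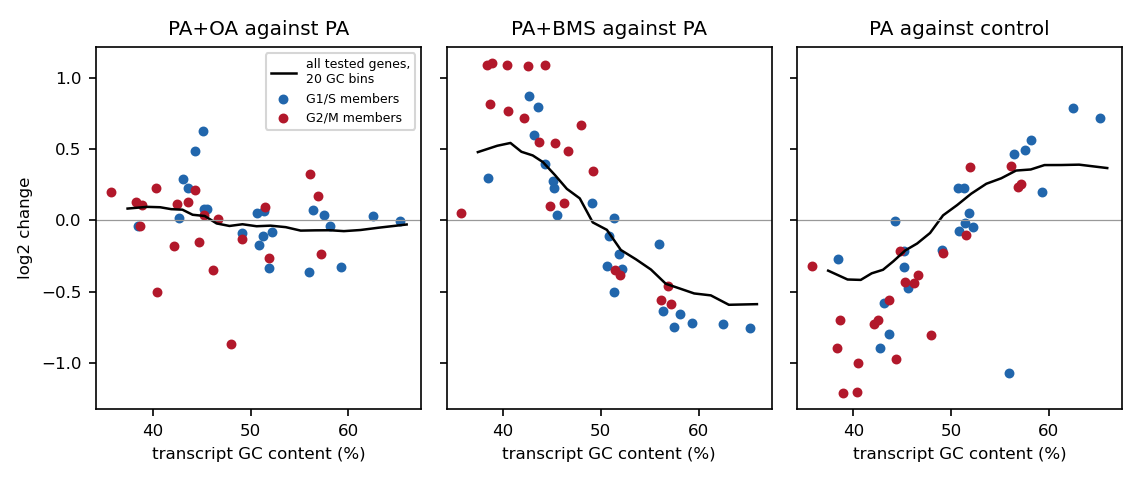
Log2 change of the 43 tested members against transcript GC content in 3 comparisons, G1/S members in blue and G2/M in red, with the line joining medians of 20 GC bins of all tested genes. Members tend to follow the line of all genes, downward in PA+BMS against PA and upward in PA against control. In the latter CCND1 lies far under the line, and TOP2A, ANLN and BUB1B also lie under it. BUB1 lies above it in PA+BMS against PA. With oleate added the line is nearly flat and CDC6 and RFC4 lie above it.

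BMS-309403 on top of palmitate was compared with palmitate alone. No group had the inhibitor without palmitate. An altered response to palmitate and a separate effect of 24 h of the inhibitor therefore cannot be told apart. Many mitotic genes rose and a few fell. Of 43 members, 15 rose and 10 fell, while 25.2% of all tested genes rose and 29.4% fell. Of 21 G2/M members 11 rose and 3 fell, with a median log2 change of 0.55, and of 22 G1/S members 4 rose and 7 fell, with a median of -0.13, against -0.04 over all tested genes. The G1/S counts are near or below the shares of all tested genes. PA libraries are shared with the other comparisons, so opposite signs in PA+BMS against PA and PA against control are not independent of each other.

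Of the mitotic genes, BUB1 (log2 change 1.09 ± 0.16, adjusted p = 0.00183), BUB1B (log2 change 1.09 ± 0.18, adjusted p = 0.00311), TOP2A (log2 change 1.10 ± 0.21, adjusted p = 0.00395) and CCNA2 (log2 change 0.72 ± 0.15, adjusted p = 0.00528) had the smallest p-values. BUB1 averaged 15.1 ± 3.25 FPKM in PA+BMS cells and 6.497 ± 0.729 in PA cells. KIF11, ANLN and SMC4 rose by 1.09, 1.09 and 0.82, and NUSAP1, CCNB2, TPX2 and KIF20A, of which TPX2 activates AURKA on the spindle and KIF20A is a motor of the dividing midzone, rose by 0.55, 0.55, 0.49 and 0.34. PLK1 (log2 change -0.59 ± 0.17, adjusted p = 0.0147), AURKB (log2 change -0.56 ± 0.21, adjusted p = 0.0411) and CDC20 (log2 change -0.46 ± 0.18, adjusted p = 0.0494) fell. CDK1 at 0.05, CCNB1 at 0.10, AURKA at 0.12 and BIRC5, the passenger protein survivin, at -0.38 did not pass, nor did MKI67 at 0.67, CENPF at 0.77 and UBE2C at -0.35.

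Among G1/S members RRM1 (log2 change 0.80 ± 0.16, adjusted p = 0.00476), MCM6 (log2 change 0.60 ± 0.15, adjusted p = 0.0085), POLA1 (log2 change 0.88 ± 0.23, adjusted p = 0.0103) and RFC4 (log2 change 0.39 ± 0.11, adjusted p = 0.0121) rose. MCM5 (log2 change -0.75 ± 0.18, adjusted p = 0.00843), CCND3 (log2 change -0.72 ± 0.18, adjusted p = 0.0088), MCM7 (log2 change -0.64 ± 0.17, adjusted p = 0.0104) and MCM2 (log2 change -0.66 ± 0.18, adjusted p = 0.0128) fell, as did E2F1 at -0.73, CDT1 at -0.75 and GINS2 at -0.50. E2F1 averaged 35.2 ± 5.02 FPKM in PA+BMS cells and 58.6 ± 2.65 in PA cells. CCND1 did not pass, at -0.16 (adjusted p = 0.554, limma), with 30.3 ± 9.398 FPKM in PA+BMS cells and 33.2 ± 3.83 in PA cells. The other G1/S members, namely CCNE1, CCNE2, CDK2, CDC25A, CDC6, MCM3, MCM4, PCNA, RRM2 and TYMS, lay between -0.34 and 0.30 and did not pass.

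GC content divided these calls completely. The 15 members that rose had 38.3% to 49.2% GC and the 10 that fell 51.3% to 65.2%, the Spearman correlation over 43 members was -0.89, and GC content and length accounted for 58.3% of the variance of all log2 changes. With the trend removed, 8 members rose and 1 fell (background 9.69% and 10.4%); those that rose were BUB1, BUB1B, TOP2A, CCNA2, KIF11, CCNB2 and KIF20A, all G2/M members, and RRM1, and MCM5 fell. BUB1 then changed by 0.62 and TOP2A by 0.57 (adjusted p = 0.00201 and 0.0148, limma), CDC20 reversed to 0.073, and E2F1 stood at -0.10. With both libraries that stand apart left out, 16 members rose and 12 fell (background 25.0% and 30.1%), and the falls numbered 4 without PA+BMS replicate 3 alone and 5 without PA replicate 2. With library totals set equal the split was 24 rises to 4 falls and with quantile normalization 22 to 4, against 15 to 10. The G2/M median stayed above that of all genes under each of these scalings, while that of G1/S members was below it as deposited and above it with quantile normalization (0.15 against -0.02). Equal totals moved the median of all genes to 0.24 here and to -0.18 in PA against control.

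**Figure D4:**
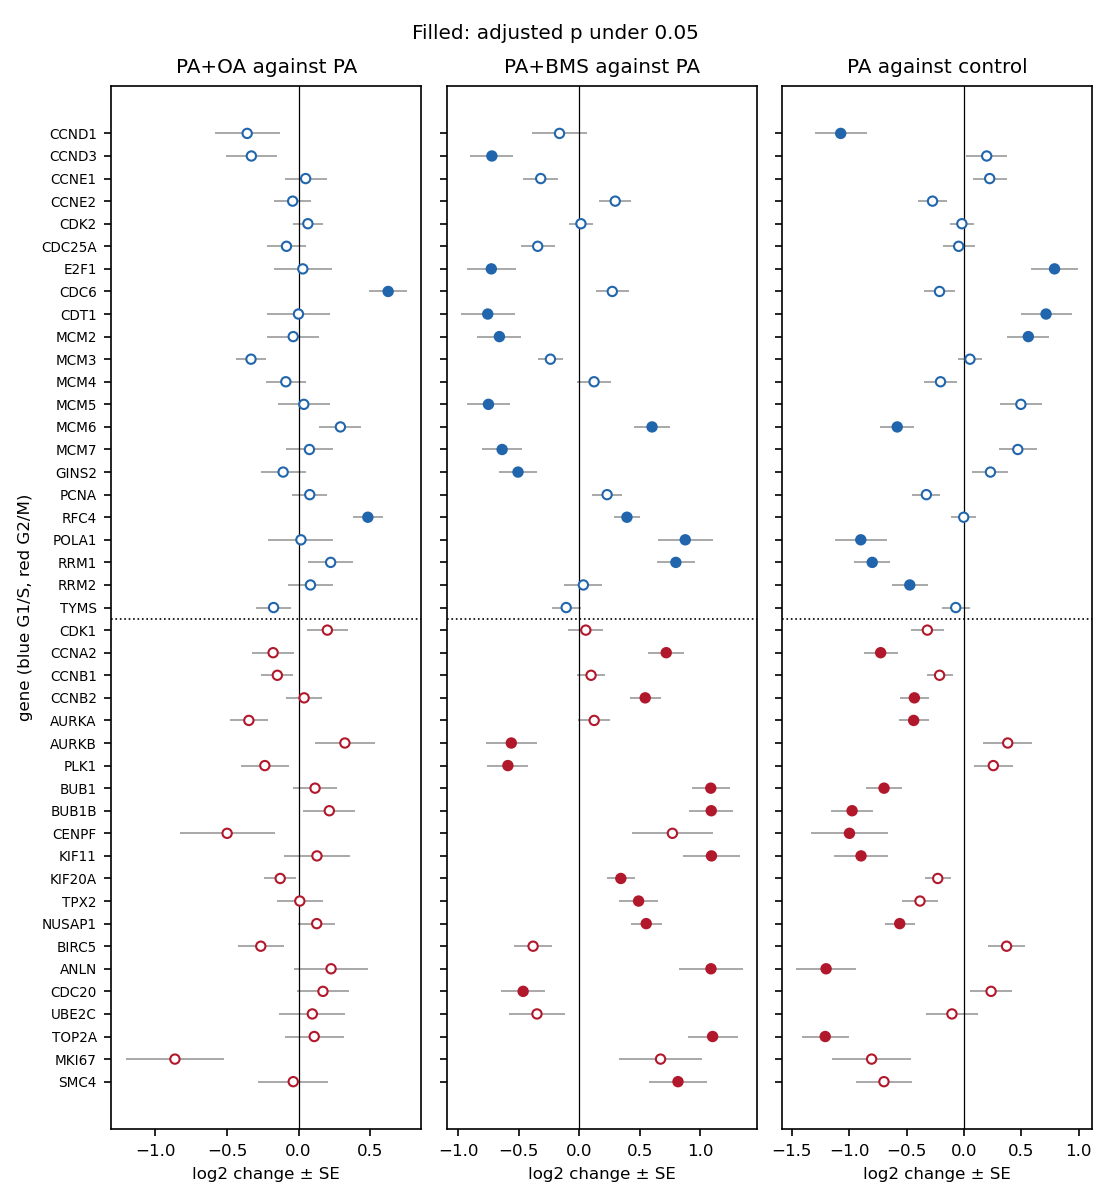
Log2 change ± SE of the 43 tested members in 3 comparisons, G1/S members in blue above the dotted line and G2/M members in red below; filled points have an adjusted p under 0.05 (limma). In PA+OA against PA the filled points are CDC6 and RFC4; in PA+BMS against PA 15 filled points lie right of 0 and 10 left; in PA against control 3 lie right and 15 left.

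Oleate added to palmitate was compared with palmitate alone. Only 2 of 43 members rose, CDC6 and RFC4, and none fell, where 4.01% of all tested genes rose and 3.91% fell (limma). CDC6 (log2 change 0.63 ± 0.13, adjusted p = 0.0134) averaged 41.7 ± 6.65 FPKM in PA+OA cells and 26.5 ± 1.38 in PA cells, and RFC4 (log2 change 0.48 ± 0.11, adjusted p = 0.0158) averaged 23.4 ± 1.695 in PA+OA cells and 16.5 ± 1.32 in PA cells. At an unadjusted p under 0.05, 3 members were lower and 2 higher, and voom on the recovered reads likewise called 0 lower and 2 higher. Median log2 changes were 0.02 for G1/S and 0.04 for G2/M members, against 0.00 for all tested genes. TOP2A, BUB1B, CCNA2 and E2F1, called in PA against control, were at 0.11, 0.21, -0.18 and 0.03 and did not pass. MKI67 was lower by value (log2 change -0.86 ± 0.35, adjusted p = 0.164, limma), with all 3 PA+OA libraries below all 3 PA libraries.

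CDC6 and RFC4 were higher also with the GC and length trend removed, at 0.58 and 0.36, where MCM3 at -0.34, CCNB1 at -0.27 and AURKA at -0.42 fell (background 7.11% rose, 7.17% fell). Without the 2 libraries that stand apart CDC6, RFC4 and MCM6 rose and CCND3, MCM3, PLK1 and BIRC5 fell (background 11.2% and 14.2%). Rises numbered 0 without PA+OA replicate 2, PA+OA replicate 3 or PA replicate 2 and 1 without PA replicate 1, and without PA+OA replicate 1 alone 4 members fell. RFC4 overlaps EIF4A2 on the other strand, which averaged 14.4 ± 3.13 FPKM in PA+OA and 9.36 ± 1.66 FPKM in PA cells. EIF4A2 averaged 15.7 ± 0.711 FPKM in PA+BMS and 16.6 ± 3.38 FPKM in control cells, where RFC4 was about as low as in PA cells. The part of shared reads in RFC4 was not tested.

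Each treated group was also set against control, which shares its libraries with the first comparison. In PA+OA against control 17 members fell and 8 rose, with 18.8% and 17.5% of all tested genes called. The falls included CCNA2 (log2 change -0.90 ± 0.15, adjusted p = 0.000945), AURKA (log2 change -0.79 ± 0.13, adjusted p = 0.00104), TOP2A (log2 change -1.10 ± 0.21, adjusted p = 0.0021) and MKI67 (log2 change -1.67 ± 0.35, adjusted p = 0.00369), within 14 of 21 G2/M members, and CCND1 (log2 change -1.43 ± 0.23, adjusted p = 0.000708), POLA1 and RRM1 among G1/S members. Of the G2/M members only AURKB rose (log2 change 0.71 ± 0.21, adjusted p = 0.0227), and of G1/S members RFC4, E2F1, MCM7, CDT1, CDC6, MCM5 and MCM2 rose, by 0.41 to 0.82. MKI67 averaged 7.18 ± 2.91 FPKM in PA+OA cells and 24.7 ± 7.71 in control cells, the largest fall of a member in this comparison. With the trend removed 20 fell and 6 rose, MKI67 among those that fell at -1.37 (background 20.2% and 17.7%), and without the 2 libraries that stand apart 21 fell and 5 rose (21.2% and 18.3%). Setting library totals equal gave 25 falls to 5 rises and quantile normalization 21 to 5. Leaving out control replicate 2 or 3 left 8 and 9 falls and 2 and 3 rises, and leaving out PA+OA replicate 1 left 3 rises.

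PA+BMS cells differed from control cells in 1 member each way, where 4.77% of all tested genes rose and 6.25% fell. CCND1 fell (log2 change -1.24 ± 0.23, adjusted p = 0.00507), to 30.3 ± 9.398 FPKM in PA+BMS cells, against 72.1 ± 17.3 in control cells, and RFC4 rose (log2 change 0.39 ± 0.11, adjusted p = 0.0353). None of the G2/M members that fell in PA cells was called in PA+BMS cells against control, which does not show that they were equal. TOP2A was at -0.11, CCNA2 at -0.01, AURKA at -0.31 and BUB1 at 0.39 (limma, adjusted p 0.78, 0.98, 0.15 and 0.14). The fall of CCND1 held without any 1 library and was -1.17 with the trend removed, where 4 members fell and 3 rose in all (background 9.86% and 9.91%). Among these calls AURKA fell, at -0.32, and BUB1 rose, at 0.28 (adjusted p = 0.0372 and 0.0388, limma). RFC4 lost its call without any 1 of 6 libraries, namely any PA+BMS library, PA replicate 2 or control replicate 1 or 3, and 4 members fell without PA+OA replicate 1. Without the 2 libraries that stand apart 6 fell and 1 rose (10.6% and 7.63%), with totals set equal 2 fell and 0 rose, and with quantile normalization 2 fell and 1 rose.

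PA+BMS was last set against PA+OA, 2 treatments that both hold palmitate. Of 43 members 17 rose and 8 fell, where 23.1% and 26.4% of all tested genes were called. Of 21 G2/M members 14 rose, led by BUB1 (log2 change 0.97 ± 0.16, adjusted p = 0.00146), CCNA2 (log2 change 0.90 ± 0.15, adjusted p = 0.00166), TOP2A (log2 change 0.99 ± 0.21, adjusted p = 0.00465) and BUB1B (log2 change 0.88 ± 0.18, adjusted p = 0.00465), and AURKB (log2 change -0.88 ± 0.21, adjusted p = 0.00815) and CDC20 (log2 change -0.63 ± 0.18, adjusted p = 0.0166) fell. MKI67 had the largest change, 1.54, with 23.3 ± 11.7 FPKM in PA+BMS cells and 7.18 ± 2.91 in PA+OA cells, and 0.87 without the 2 libraries that stand apart. POLA1, RRM1 and CCNE2 rose among G1/S members, and MCM5, MCM7, E2F1, MCM2, CDT1 and CDC6 fell. With the trend removed 15 rose and 5 fell (background 17.0% and 15.6%), and without the 2 libraries that stand apart 9 rose and 4 fell (9.01% and 12.6%). Setting totals equal gave 23 rises to 6 falls and quantile normalization 23 to 4. Without PA+BMS replicate 3 alone 10 rose and 3 fell.

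The 2 phases were compared library by library. For each library the median over G2/M members minus the median over G1/S members, of log2 values centred on each gene's mean, was -0.48, -0.27 and -0.14 in PA+OA, 0.19, 0.12 and 0.64 in PA+BMS, -0.21, -0.34 and -0.13 in PA and 0.00, 0.28 and 0.30 in control. All 6 libraries of PA+OA and PA were below 0 and all others were at or above it. The G1/S medians by themselves lay between -0.14 and 0.09, and the G2/M medians between -0.45 and 0.49. The median log2 change of G2/M minus that of G1/S members was -0.41 for palmitate against control, and 0.68 and 0.02 for PA+BMS and PA+OA against palmitate alone. After the GC and length trend was removed these were -0.17, 0.38 and -0.04, and the differences per library lay between -0.30 and -0.13 in PA+OA, 0.08 and 0.38 in PA+BMS, -0.14 and -0.08 in PA and -0.00 and 0.20 in control. As the lists were chosen with results known, no test was made of them.

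**Figure D5:**
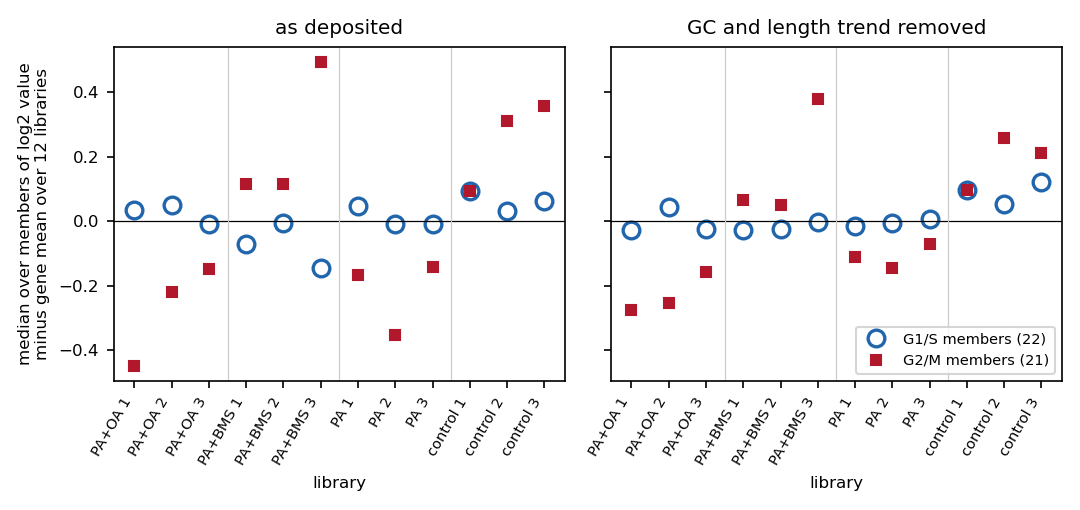
Median over 22 G1/S members (open blue circles) and 21 G2/M members (red squares) of the log2 value minus the gene's mean over 12 libraries, for each library by group, as deposited (left) and with the GC and length trend taken out per library (right). G2/M medians are below 0 in PA+OA and PA and above 0 in PA+BMS and control, in both panels. G1/S medians vary less and lie between -0.14 and 0.09 as deposited. With the trend taken out the control G1/S medians, 0.097, 0.053 and 0.12, are also above 0, and in control replicate 1 both phases are at 0.097.

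Regulators outside the 44 genes were examined next, only in the values as deposited, without the GC and length trend removed. Of 13 tested CDK inhibitors and pocket proteins, 2 rose and 2 fell in PA against control, 6 rose and 4 fell in PA+BMS against PA, and 3 rose and 0 fell in PA+OA against PA. Of 16 tested G1 cyclins, CDKs and growth inputs the counts were 1 and 4, 6 and 3, and 0 and 1. Over all tested genes 12.8% rose and 14.8% fell with palmitate, 25.2% and 29.4% with the inhibitor added, and 4.01% and 3.91% with oleate added. With palmitate the counts of the first list are near these shares. The second list had fewer rises and more falls than they give, over few genes. CDKN1A, which encodes the p21 inhibitor of cyclin-dependent kinases, had 317, 232 and 217 FPKM in PA+OA cells, 104, 96.6 and 69.1 in PA+BMS cells, 209, 238 and 198 in PA cells and 67.8, 47.8 and 48.2 in control cells. It rose with palmitate (log2 change 1.97 ± 0.20, adjusted p = 0.000219), fell with BMS-309403 on top (log2 change -1.26 ± 0.20, adjusted p = 0.00251) and was at 0.23 with oleate added (adjusted p = 0.594, limma). CDKN1B, encoding p27, had 14.6, 18.8 and 15.9 FPKM in PA+OA cells, 25.9, 27.98 and 27.1 in PA+BMS cells, 15.3, 17.4 and 18.5 in PA cells and 28.8, 25.4 and 27.1 in control cells. PA+OA and PA libraries lay below PA+BMS and control without overlap. It fell in PA against control (log2 change -0.64 ± 0.12, adjusted p = 0.00476) and rose in PA+BMS against PA (log2 change 0.64 ± 0.12, adjusted p = 0.00373). SKP2, the ubiquitin ligase subunit that marks p27 for destruction, averaged 8.35 ± 0.985 FPKM in PA+OA, 21.1 ± 0.987 in PA+BMS, 14.2 ± 1.77 in PA and 25.5 ± 1.78 in control cells (SD, n = 3). It fell with palmitate (log2 change -0.81 ± 0.12, adjusted p = 0.00168) and again with oleate added (log2 change -0.70 ± 0.12, adjusted p = 0.00355), and rose with the inhibitor added (log2 change 0.54 ± 0.12, adjusted p = 0.00604). CDKN2D, a CDK4 and CDK6 inhibitor, rose with palmitate (log2 change 0.81 ± 0.18, adjusted p = 0.0117) and with oleate added (log2 change 0.94 ± 0.18, adjusted p = 0.00858). MYC, a driver of entry into the cycle, was not called, at 0.04, -0.08 and -0.42 with palmitate, with oleate added and with BMS-309403 added. FOXM1, the mitotic activator, rose by 0.34 (adjusted p = 0.0446, limma) in PA against control, fell in PA+BMS against PA (-0.30, adjusted p = 0.0415) and lay at -0.34 in PA+OA against PA without passing.

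Wider lists of cycle genes were chosen by role, but with earlier results of these data known. Their counts are therefore a description and not a separate check of the members. In PA against control 14 of 54 tested other G2 and M genes fell and 4 rose, and 10 of 44 other replication genes fell and 3 rose. Over all tested genes 14.8% fell and 12.8% rose, so both lists had more falls and fewer rises than those shares. Those that fell with the smallest p were KIF23, a motor of the midzone (log2 change -0.94 ± 0.16, adjusted p = 0.00325), ECT2, which starts furrowing (log2 change -1.03 ± 0.18, adjusted p = 0.00397), BUB3, of the spindle checkpoint (log2 change -0.75 ± 0.14, adjusted p = 0.00589), RFC3, a clamp loader subunit (log2 change -0.64 ± 0.10, adjusted p = 0.00257), and GMNN, geminin, which blocks CDT1 (log2 change -0.54 ± 0.09, adjusted p = 0.00391). In PA+BMS against PA 26 of 54 other G2 and M genes rose and 9 fell, NDC80, of the kinetochore (log2 change 1.07 ± 0.17, adjusted p = 0.00247), leading those that rose and PKMYT1, a kinase that restrains CDK1 (log2 change -0.80 ± 0.19, adjusted p = 0.00791), those that fell, and 18 of 44 replication genes rose and 11 fell. The shares over all tested genes were 25.2% and 29.4%, so both lists had more rises than that share. The falls of the G2 and M genes were fewer than their share and those of the replication genes near it. In both comparisons the replication genes thus leaned the same way as the G2 and M genes in the values as deposited. Counts of these lists with the GC and length trend removed are not given here. The part of base composition in them was not tested. With oleate added there was 1 rise with 3 falls among the 54 G2 and M genes, against 3 rises with 1 fall among the 44 replication genes, where 4.01% of all tested genes rose and 3.91% fell. CCNF, cyclin F, a ubiquitin ligase subunit, fell (log2 change -1.21 ± 0.15, adjusted p = 0.000592), with 11.6, 8.28 and 8.45 FPKM in PA+OA cells and 25.96, 22.2 and 20.9 in PA cells, which do not overlap, and 16.02, 15.9 and 21.2 in control cells. GMNN rose (log2 change 0.49 ± 0.09, adjusted p = 0.00756), as did SLBP, the histone messenger binding protein (log2 change 0.63 ± 0.14, adjusted p = 0.016), and UHRF1, a maintenance methylation factor, fell (log2 change -0.69 ± 0.15, adjusted p = 0.016).

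Markers checked the label of the cells. None of 9 hepatocyte markers, HNF4A among them, reached 1 FPKM in any library. Their sum stayed between 0.0186 and 0.311 FPKM and ALB was listed at 0 throughout, though 8 of the 9 had reads in some library. These markers were thus at or near 0 and did not bear out the hepatic label. Of 6 bile duct and epithelial markers KRT7, KRT8 and KRT18 were abundant while KRT19, EPCAM and SOX9 stayed under 1 FPKM, and the sum was 955 to 1739 FPKM in PA+OA, 372 to 427 in PA+BMS, 1029 to 1286 in PA and 872 to 1051 in control libraries. The 6 stellate and fibroblast markers summed to 15.1 to 16.8 FPKM in PA+BMS and 17.0 to 21.9 in the other groups. Macrophage and leukocyte markers (4) summed to 0.539 to 0.607 FPKM in PA+BMS and 1.51 to 2.20 in the others, nearly all from CSF1R, with PTPRC and CD163 at or near 0. Endothelial markers (4) summed to 0.287 to 0.459 FPKM in PA+OA and PA+BMS and to 1.06 to 1.82 in PA and control. The lower keratin sum moved with the PA+BMS group, and its part in the cell cycle values was not tested.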

How the data were processed

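RNA-seq of 12 HepaRG libraries was deposited by the authors as gene FPKM; HISAT2 2.0.5, featureCounts 1.5.0-p3 and CASAVA are named in the submitters' processing notes. Neither build nor annotation nor strand setting is stated there; symbols, identifiers and coordinates matched GENCODE 29 (GRCh38) for 58735 and 58724 of 58735 genes. All values came out as whole reads (100%, tolerance 0.001). Groups came from the labels. The 44 members, the other lists and the rule for genes named were chosen with earlier results of these data known. By that rule all 44 were accounted for, 30 with every library's value.

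Genes at 1 FPKM or more in at least 3 libraries (11856) were tested with limma 3.58.1 (R 4.3.3) on log2(FPKM + 1), with 1 coefficient per group over 12 libraries, a trended prior, and two-sided p adjusted by Benjamini-Hochberg within each of 6 comparisons at 0.05. Alternatives were another filter or none, another pseudocount, scaling, voom on the recovered reads, a replicate block, fits of 2 groups only, removal of the GC and length trend (natural splines, 5 degrees of freedom), and fits without libraries. The fit was also run on simulated reads with known changes. These had no GC trend and no libraries that stand apart, so that run says nothing of the part of either in the calls.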

Additional observations from a re-analysis of the deposited data

How the results depend on the processing

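Calls rest on 3 libraries a group, and CENPE alone among the members was left out, by the 1 FPKM filter, with 13 to 299 reads per library. Of 97 calls of members over 6 comparisons, 45 held in every fit without 1 library and 35 under every other setting; the causes of the losses were not tested. The 2 reversals were CDC20 in PA+BMS against PA, at 0.032 with quantile normalization and 0.073 with the trend removed.

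In PA against control, without 1 library 5 to 19 members fell, 0 to 6 rose, and G2/M minus G1/S lay between -0.49 and -0.36. Falls numbered 9 with no filter and 23 without the 2 libraries that stand apart; rises 0 with no filter, 5 at 5 FPKM, 8 with 2 groups, 6 with the block, 1 with the trend removed, 5 with voom and 10 without the 2; the phase difference was -0.17 with the trend removed. In PA+OA against PA the ranges were 0 to 4, 0 to 2, and -0.081 to 0.087; rises numbered 0 with totals equal and with 2 groups, and falls 3 with the trend removed and 4 without the 2. In PA+BMS against PA they were 4 to 13, 12 to 17, and 0.45 to 0.74; rises numbered 24 with totals equal and 8 with the trend removed, falls 6 with no filter, 4 with totals equal and quantile and 1 with the trend removed, and the phase difference was 0.38 with the trend removed and 0.45 without the 2.

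In PA+OA against control they were 8 to 18, 2 to 8, and -0.39 to -0.28; rises numbered 2 with no filter, 5 with totals equal, quantile and without the 2, and 3 with 2 groups, and the phase difference was -0.47 with voom. In PA+BMS against control they were 1 to 4, 0 to 1, and -0.050 to 0.18; rises numbered 0 with totals equal and 2 groups, 2 with the block and 3 with the trend removed, and falls 2 with totals equal, quantile, 2 groups and the block, 4 with the trend removed and 6 without the 2. In PA+BMS against PA+OA they were 3 to 9, 10 to 16, and 0.54 to 0.63; rises numbered 6 with 2 groups and 9 without the 2, and falls 4 with no filter, quantile and without the 2, 1 with 2 groups and 5 with the trend removed.

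With the replicate number as a block, rises and falls were 6 and 19, 2 and 0, 16 and 12, 8 and 20, 2 and 2, and 16 and 11 in the order above. The labels do not say whether a number marks anything shared: 9 of 18 same-numbered pairs correlated over 0.1 (range -0.278 to 0.563), and 9 of 12 libraries correlated best with their own number, a hint from the data and not the design.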
